A study of Mus musculus with 16 samples.

Results

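Gene expression was compared between the distal and the proximal colon of WT mice, in 8 of the 16 libraries of the series. The 8 libraries were chosen by the genotype and segment in their titles, with 4 WT distal and 4 WT proximal libraries. WT mice carried 2 intact Ednrb alleles (Ednrb +/+) and were littermates of the Ednrb-/- mice that model Hirschsprung disease (HSCR), on a hybrid C57BL6/J-129Sv background. They were 2 to 4 weeks old, and the labels name no treatment. Each library was made from LMMP, the outer muscle layer dissected from the colon together with the nerve plexus between the muscle layers, so that smooth muscle, enteric neurons and glia, interstitial cells, fibroblasts and vessels were sequenced together. The tissue entries of the distal samples name the proximal colon while their titles name the distal colon, and the titles were followed. The labels give a replicate number but do not say which segments came from the same mouse.

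The proximal and the distal colon are derived from different stretches of the embryonic gut tube, and the boundary between midgut and hindgut lies within the colon. Position along the tube is recorded in the mesenchyme by Hox genes, which are arranged in 4 clusters and are switched on in the order of their position, the 3′ genes towards the head and the 5′ genes towards the tail. Other transcription factors and the Wnt, BMP, hedgehog, FGF and retinoic acid pathways pattern the muscle and the submucosa along the same axis. Motility also differs by region, with mixing in the proximal colon and propulsion of formed pellets in the distal colon.

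The WT proximal libraries held between 21384372 and 39842132 counted reads and the WT distal libraries between 31363925 and 45500911. Mitochondrial genes took from 7.31% to 49.8% of the counts in proximal and from 4.32% to 23.7% in distal libraries (27.4% ± 18.7 versus 13.02% ± 8.66, mean ± SD, n = 4 each, p = 0.229 by a two-sided exact permutation test, for which 0.0286 is the smallest p possible). Summed CPM (read counts scaled to library size by TMM) of 29 colon epithelium genes ranged from 151 to 4773 in proximal and from 290.1 to 3583 in distal libraries, with WT proximal 1 and WT distal 1 highest. Acinar genes of the pancreas reached 1267 CPM in WT distal 2 and at most 45.2 CPM in the other 7 libraries. Xist and the Y-linked Ddx3y were both present in WT distal 4, at 245 and 17.1 CPM, whereas each of the other 7 WT libraries held only 1 of the 2. The part of these differences in the results below was not tested, and values without the libraries concerned are given where a call changed.

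Of 16566 genes tested, 3 passed the test, which asked for an adjusted p under 0.05 (edgeR quasi-likelihood test, Benjamini-Hochberg) and a fold change beyond 1.5. Pitx1 and Tnnt2 rose in the distal colon (0.0121% of all genes tested) and A630023A22Rik fell (0.00604%). A630023A22Rik lay outside the rule by which genes were named, because of its provisional symbol, and is described after its values were seen. Without the adjustment, 533 genes (3.22%) were higher and 345 (2.08%) lower at a p under 0.05. In 445 genes (2.69%) every distal library lay above every proximal library, and in 261 (1.58%) every distal library lay below, both called groups apart from here on. Other methods gave other counts on the same libraries, with 23 higher and 26 lower by DESeq2. RUVr, a further normalization that the study's methods name as RUVr4, was run here with 4 factors and gave 1358 and 1488. These factors were taken from the residuals of the same 8 libraries. They leave little spread between libraries to test against, so these 2 counts cannot be read beside the others. All 16 libraries in 1 edgeR fit gave 0 and 0 (567 and 339 at an unadjusted p under 0.05). The biological coefficient of variation within a segment was 0.700, and the median log2 fold change over all genes tested was 0.03.

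Pitx1 (ENSMUSG00000021506, chr13:55972864-55984005, minus strand) encodes a homeodomain factor known for its role in the hindlimb and the posterior body. It was measured at 15.2, 10.3, 10.6 and 13.5 CPM in WT proximal libraries 1 to 4 and at 59.5, 74.4, 98.1 and 97.9 CPM in WT distal libraries 1 to 4. The lowest distal library lay well above the highest proximal library, and the fitted difference was 6.61-fold (log2 fold change 2.72 ± 0.26 SE, adjusted p = 0.0155 by edgeR's quasi-likelihood test). The call was kept without WT distal 1 and ended without any other single library, with an adjusted p of up to 0.168 and a log2 fold change between 2.62 and 2.86. As a scale per gene length, the authors' FPKM values averaged 4.65 in proximal and 30.0 in distal libraries.

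Tnnt2 (ENSMUSG00000026414, chr1:135764092-135779998, plus strand) encodes the troponin T of cardiac muscle, a part of the thin filament. Its level was 9.68, 3.74, 13.9 and 12.9 CPM in the proximal libraries and 161, 94.6, 115 and 174 CPM in the distal libraries. All 4 distal libraries were higher than all 4 proximal libraries, by a fitted 13.6-fold (log2 fold change 3.77 ± 0.44 SE, adjusted p = 0.0497 by the same test). The call was kept without WT proximal 2 and ended without each other library, with an adjusted p of up to 0.275 and a log2 fold change between 3.47 and 3.93. The summed level of 13 skeletal muscle genes was 1715 CPM in WT distal 1 but between 140 and 195 CPM in the other 3 distal libraries, against 39.9 to 256 CPM in the proximal libraries. Tnnt2 itself was at 94.6 to 174 CPM in those 3 distal libraries.

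A630023A22Rik (ENSMUSG00000095493, chr14:33773083-33824711, minus strand) is annotated as protein-coding, and no function is given here. Its level varied little within a segment, with 19.7, 18.8, 19.0 and 17.9 CPM in the proximal and 1.03, 1.24, 1.51 and 1.40 CPM in the distal colon. The fitted level was 14.5-fold lower in the distal colon (log2 fold change -3.86 ± 0.32 SE, adjusted p = 0.00726 by edgeR's quasi-likelihood test). The call was kept without WT proximal 2 and without WT distal 1 and ended without each of the other 6 libraries, with an adjusted p of at most 0.0893. Anxa8 and Antxrl lie within the same span on the other strand, and the labels do not say which libraries kept the strand. Anxa8 did not follow A630023A22Rik, with 5.74, 0, 11.4 and 9.07 CPM in the proximal and 88.6, 6.12, 8.97 and 21.1 CPM in the distal libraries.

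The 250 bases before the transcript start of both genes that rose are shown so that the regulatory sequence next to each start can be compared with that of the Hox genes described after them (GRCm39, 5′ to 3′ on the gene's strand, starts from GENCODE M39). They lie at chr13:55979239-55979488 (minus strand) for Pitx1 and chr1:135763488-135763737 (plus strand) for Tnnt2. The 3 motifs were searched on both strands: the TATA box TATAAA, the core TTTATG preferred by posterior Hox and caudal proteins, and the core CATTCC bound by TEAD factors. Neither window held any of them, so no letters are in capitals. The starts used are those of the canonical transcripts, which differ from the gene ends given above. The Pitx1 window lies within the gene span, whose end on the minus strand is at 55984005. The Tnnt2 window ends before the gene start at 135764092. Sequence before other starts was not searched, so the absence of the motifs holds for these windows only. Among the windows of 16527 tested genes, 8.37% held TATAAA, 8.25% TTTATG and 11.8% CATTCC.
Pitx1: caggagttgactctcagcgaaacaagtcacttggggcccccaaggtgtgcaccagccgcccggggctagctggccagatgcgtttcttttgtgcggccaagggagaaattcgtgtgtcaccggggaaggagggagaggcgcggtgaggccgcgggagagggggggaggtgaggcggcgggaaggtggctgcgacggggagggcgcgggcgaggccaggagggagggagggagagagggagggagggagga
Tnnt2: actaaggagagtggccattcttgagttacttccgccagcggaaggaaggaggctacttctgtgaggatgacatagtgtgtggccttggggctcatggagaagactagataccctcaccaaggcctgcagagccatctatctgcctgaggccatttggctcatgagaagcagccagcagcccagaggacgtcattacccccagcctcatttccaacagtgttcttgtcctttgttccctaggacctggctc

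The next 10 protein-coding genes with the smallest p and every distal library above every proximal library did not pass the test, with an adjusted p of 0.116 for Deptor and between 0.307 and 0.822 for the others (edgeR quasi-likelihood). Deptor, an inhibitor of the mTOR kinase, was at 35.9, 28.9, 24.7 and 26.7 CPM in proximal and 75.9, 122, 105 and 152 CPM in distal libraries (log2 fold change 1.96 ± 0.26 SE). Inhba, the subunit of activin A, was below 2.1 CPM in every proximal library. In the distal libraries it was at 41.2, 11.9, 13.2 and 12.2 CPM, so that WT distal 1 stood above the other 3. Tbx5, a T-box factor of heart and forelimb, had 0 counts in all 4 proximal libraries and 432 counts over the distal libraries, which at a floor of 3 counts per library made it at least 22.4-fold higher. The distal levels of Tbx5 were 3.80, 3.31, 0.827 and 3.91 CPM. Mss51, a gene of muscle mitochondria, had 2 counts in proximal and 425 in distal libraries (ratio 144, counting interval 39.5 to 1189). Of the distal counts, 299 came from WT distal 1, which also held the most skeletal muscle RNA (1715 CPM). The distal levels of Mss51 were 9.63, 1.01, 0.455 and 1.71 CPM. The part of skeletal muscle RNA in this difference was not tested.

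The remaining members of this group covered signalling, metabolism and epithelium. Chrdl1, a secreted BMP antagonist, was at 14.6 to 23.7 CPM in proximal and 35.1 to 108 CPM in distal libraries (log2 fold change 1.84 ± 0.38 SE), and Id4, an inhibitor of helix-loop-helix factors that BMP signals induce, at 28.7 to 55.7 and 75.5 to 145 CPM. Fmo2, a flavin monooxygenase, had 37.5 to 85.3 and 154 to 435 CPM, and Aifm2, an oxidoreductase that limits lipid peroxidation, 15.03 to 20.2 and 42.4 to 101 CPM. Reads of Aifm2 may be shared with Macroh2a2, which overlaps it on the other strand and whose own log2 fold change was -0.16. Tgm3, a transglutaminase of differentiated epithelia, was below 0.9 CPM in every proximal library, including WT proximal 1 with its high epithelium genes. Its distal levels were 161, 2.22, 65.5 and 8.10 CPM, highest in WT distal 1 and WT distal 3, which also held the most epithelium RNA of the distal libraries (3583 and 1041 CPM).

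The 12 protein-coding genes on the lower side also did not pass the test, with an adjusted p between 0.346 and 0.822 by edgeR's quasi-likelihood test. Rapgef4, an exchange factor for Rap proteins that cAMP opens, was at 17.7, 20.4, 15.99 and 16.98 CPM in proximal and 2.70, 5.25, 4.84 and 4.92 CPM in distal libraries (log2 fold change -2.01 ± 0.32 SE). Six2, a homeobox gene, was at 7.46, 16.7, 38.8 and 39.4 CPM in proximal libraries and at 2.64, 1.82, 0.599 and 1.00 CPM in distal libraries. Aldh1a2, which makes retinoic acid from retinaldehyde, was at 54.4, 35.8, 87.8 and 124 CPM and at 18.8, 11.003, 19.5 and 28.3 CPM, respectively (log2 fold change -1.96 ± 0.42 SE).

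Rgs2 and Rgs5 speed the hydrolysis of GTP by G proteins, and Rgs5 is much used as a marker of pericytes. Rgs5 was the most abundant of the 12, at 891 to 1452 CPM in proximal and 192 to 546 CPM in distal libraries, and Rgs2 was at 219 to 301 and 66.5 to 149 CPM. Of 12 endothelium genes all had a fitted value below 0, with a median log2 fold change of -0.55, 3 at an unadjusted p under 0.05 (2.08% of all genes tested) and no groups apart. In bulk tissue, fewer cells of a type and less RNA per cell cannot be told apart. Fbn2, the fibrillin of developing elastic fibres, was at 42.4 to 105 and 8.25 to 23.5 CPM. Nnat and Nrgn, both known from neurons, were at 60.0 to 111 and 14.7 to 33.6 CPM and at 11.4 to 49.4 and 2.81 to 4.35 CPM. Nnat shares its span with Blcap on the other strand (log2 fold change of Blcap -0.48), and Lhpp shares its span with Fgfr2 (0.83). Lhpp was at 27.2 to 41.3 and 7.95 to 17.2 CPM, the linker histone gene H1f10 at 25.9 to 51.5 and 11.9 to 18.2 CPM, and Rogdi at 24.8 to 47.1 and 12.5 to 19.4 CPM.

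Library names follow 1 scheme for replicates 1 and 2 of both segments, whereas for replicates 3 and 4 the scheme differs by segment, so that name and segment cannot be told apart there. Within replicates 1 and 2 and within replicates 3 and 4, the mean of the distal libraries lay on the same side for 12 of the 12 higher genes and for 13 of the 13 lower transcripts, A630023A22Rik included. Pitx1 had a difference of 2.41 within replicates 1 and 2 and 3.03 within replicates 3 and 4, Tnnt2 of 4.35 and 3.40, and A630023A22Rik of -4.07 and -3.65, each on the log2 scale. These genes were chosen because their groups did not overlap, which fixes that count. With replicates 1 and 2 alone no gene was called.

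**Figure D1:**
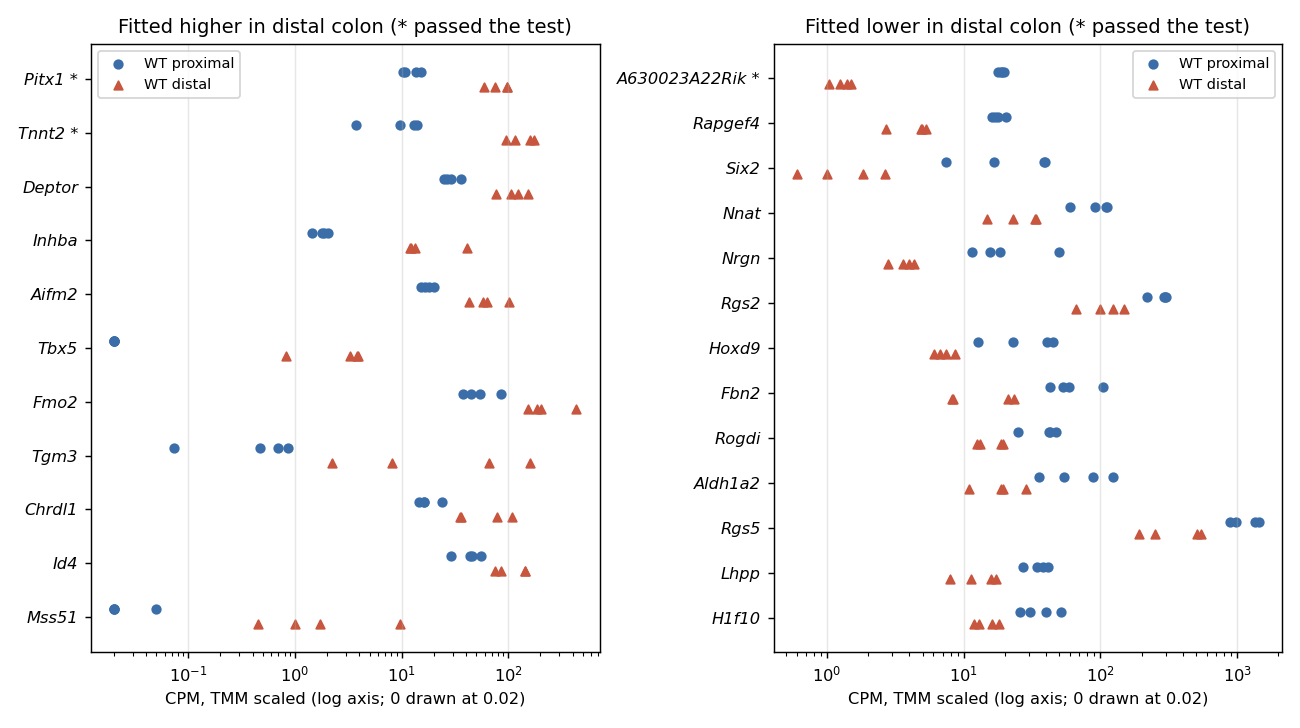
Level of the genes described above in the 8 WT libraries, as TMM-scaled CPM on a log axis with values of 0 drawn at 0.02, for genes fitted higher (left) and lower (right) in the distal colon, ordered by p with the smallest on top. Each point is 1 library, circles are WT proximal and triangles WT distal, and a star marks Pitx1, Tnnt2 and A630023A22Rik, the 3 that passed the test; the A630023A22Rik points lie within 17.9 to 19.7 CPM and 1.03 to 1.51 CPM.

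Hox genes of paralog groups 12 and 13 lay on the distal side and most of the others on the proximal side, although none passed the test after adjustment (edgeR quasi-likelihood, adjusted p of 0.793 for Hoxd9 and above for the rest). Of 39 Hox genes, 35 were tested. All 4 tested genes of groups 12 and 13 had distal libraries above all proximal libraries, with a median log2 fold change of 3.25, and 3 of them reached an unadjusted p under 0.05. Of the 31 tested genes of groups 1 to 11, 28 had a fitted value below 0, with a median of -0.96. By segment means, 21 of the 31 were lower within replicates 1 and 2 and 26 within replicates 3 and 4. Of these 31, 9 reached an unadjusted p under 0.05 on the lower side and 7 had every distal library below every proximal library. Over all genes tested, 2.69% had groups apart above and 1.58% below. At an unadjusted p under 0.05, 3.22% of all genes were higher and 2.08% lower, and 51.7% had a fitted value above 0.

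Hoxd13, the last gene of its cluster and known from the hindgut, the limb and the genital bud, was at 0.861, 15.3, 20.6 and 23.9 CPM in proximal and at 140, 153, 117 and 215 CPM in distal libraries (log2 fold change 3.38 ± 0.75 SE, unadjusted p = 0.00134). WT proximal 1 was far below the other proximal libraries. Its neighbour Hoxd12 followed the same order, with 0.143, 2.71, 2.08 and 2.51 CPM and 10.6, 19.96, 17.6 and 16.7 CPM (3.12 ± 0.70 SE). Evx2, the homeobox gene beyond Hoxd13 on the chromosome, was at 0, 3.45, 0.769 and 2.25 CPM and at 12.5, 18.1, 14.8 and 26.5 CPM, and was named after its values were seen. Hoxa13 had 9.25 to 24.8 CPM in proximal and 27.6 to 34.9 CPM in distal libraries (0.64 ± 0.31 SE). Hoxb13 was at 0, 1.17, 0 and 0.346 CPM in proximal libraries and at 82.6, 3.82, 9.51 and 1.35 CPM in distal libraries. WT distal 1 and WT distal 3, the distal libraries with the most epithelium RNA, held the most Hoxb13, while WT proximal 1 with 4773 CPM of epithelium genes held none.

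Within the HoxD cluster, Hoxd8 and Hoxd9 lay on the side opposite to Hoxd12 and Hoxd13. Hoxd8 was at 59.8, 37.0, 33.5 and 17.8 CPM in proximal and 12.1, 13.8, 14.5 and 11.3 CPM in distal libraries (log2 fold change -1.51 ± 0.37 SE). Hoxd9 was at 40.4, 44.8, 22.8 and 12.8 CPM and at 7.47, 8.59, 6.10 and 6.67 CPM (-2.06 ± 0.42 SE, unadjusted p = 0.000788). Hoxd10 had a value of -0.96 ± 0.35 with overlapping groups, and Hoxd11 a value of 0.71 ± 0.46, also with overlapping groups. Per gene length, the authors' FPKM of Hoxd9 averaged 14.1 in proximal and 3.31 in distal libraries, and that of Hoxd13 5.96 and 60.9, so that the order of these 2 averages was opposite in the 2 segments. In WT proximal 4 alone among the proximal libraries, Hoxd13 exceeded Hoxd9 in FPKM.

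The windows of 250 bases before the starts of Hoxd13 and Hoxd9 are shown because these genes of 1 cluster lay on opposite sides. They cover chr2:74498404-74498653 for Hoxd13 and chr2:74527758-74528007 for Hoxd9 (GRCm39, plus strand). Capitals mark the TATA box letters of the Hoxd13 window, where TATAAA was matched on both strands in overlapping positions, -211 and -209 from the start. The Hoxd9 window held none of the 3 motifs.
Hoxd13: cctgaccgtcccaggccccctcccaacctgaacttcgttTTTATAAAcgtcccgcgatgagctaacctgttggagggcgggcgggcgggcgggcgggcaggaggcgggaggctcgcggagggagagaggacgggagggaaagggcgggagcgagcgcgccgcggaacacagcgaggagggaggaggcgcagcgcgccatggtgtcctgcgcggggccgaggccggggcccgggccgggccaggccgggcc
Hoxd9: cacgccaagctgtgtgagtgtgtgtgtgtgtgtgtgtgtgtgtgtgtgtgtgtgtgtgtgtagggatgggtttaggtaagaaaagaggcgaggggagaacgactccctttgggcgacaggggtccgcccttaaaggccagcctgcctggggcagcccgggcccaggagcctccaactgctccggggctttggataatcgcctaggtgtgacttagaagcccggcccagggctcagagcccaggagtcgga

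The 7 Hox genes with groups apart on the lower side came from the HoxA, HoxB and HoxD clusters. In the HoxA cluster, Hoxa7 was at 9.90, 26.7, 10.4 and 10.2 CPM in proximal and 4.28, 4.01, 4.15 and 4.57 CPM in distal libraries (log2 fold change -1.74 ± 0.42 SE). Hoxa11 was at 27.9 to 29.5 and 14.2 to 17.8 CPM (-0.90 ± 0.21 SE, unadjusted p = 0.00210), although Hoxa11os overlaps it on the other strand. Hoxa2 and Hoxa3 also had groups apart, with values of -1.01 and -1.35. In the HoxB cluster, Hoxb8 was at 4.04 to 15.04 and 0.505 to 3.35 CPM. Hoxb5, which is not among the 7 because its groups overlapped, was at 43.8 to 140 and 9.60 to 69.8 CPM. Hoxb5 and Hoxa5 are expressed in the vagal neural crest as well as in the mesenchyme, and in the distal libraries they were in the same order as the summed neuron genes, with Hoxa5 at 6.21 CPM in WT distal 1 and 138 CPM in WT distal 3. The 7 tested HoxC genes from Hoxc4 to Hoxc11 had fitted values between -2.73 and -0.33 at low levels, with no groups apart and no unadjusted p under 0.05. Hoxa3 to Hoxa6, Hoxc5 to Hoxc10 and Hoxd3 with Hoxd4 overlap on the same strand, and their counts may be split uncertainly.

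**Figure D2:**
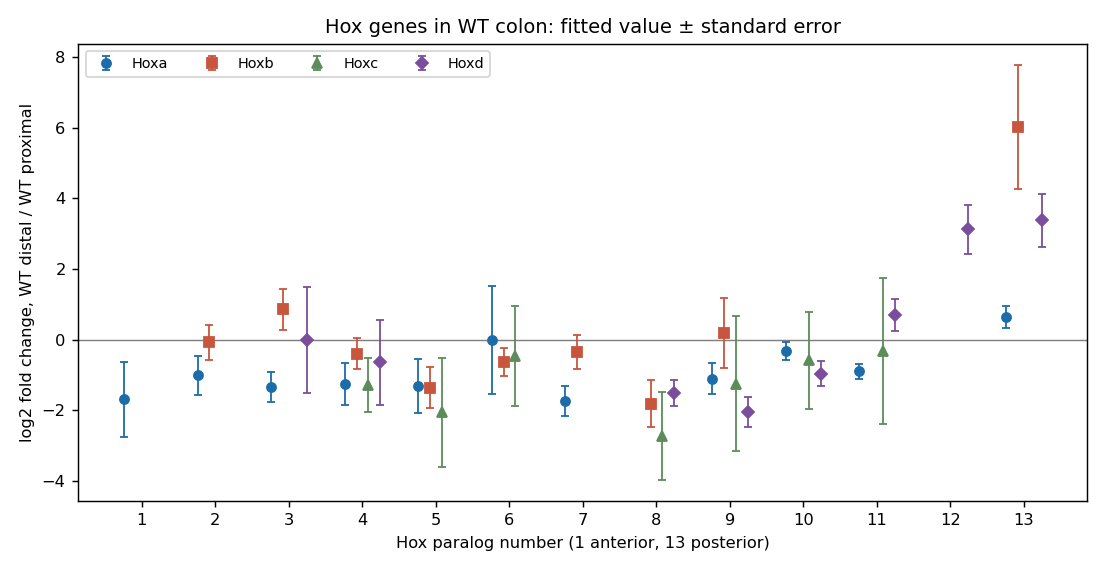
Fitted log2 fold change of the 35 tested Hox genes between WT distal and WT proximal libraries, with bars for the standard error, against the paralog number from anterior (1) to posterior (13), and a colour and symbol for each cluster. The 4 genes of groups 12 and 13 lie above 0 (0.64 to 6.03), and 28 of the 31 others lie below 0.

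Among 39 mesenchymal and regional transcription factors, 30 were tested, and Pitx1 alone passed the test. Groups apart are given beside the shares over all genes tested, 2.69% above and 1.58% below. Besides Pitx1, Tbx5 and Evx2, the groups of Isl1 and Osr2 lay apart on the higher side, as named after their values were seen, and Six2 on the lower side. Osr2, an odd-skipped factor, was at 8.25, 0.514, 0.918 and 0.562 CPM in proximal and 16.4, 26.0, 9.73 and 12.2 CPM in distal libraries. Isl1, a LIM homeodomain factor, was at 0 to 1.72 and 1.96 to 8.37 CPM.

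The signalling lists had few members with groups apart (2.69% above and 1.58% below over all genes tested), and none passed the test. Of 25 tested BMP genes, Bmp6, Grem1, Chrdl1 and Id4 lay higher and Fst lower. Grem1, a secreted BMP antagonist made by muscle and fibroblasts of the gut, was at 45.4, 156, 212 and 190 CPM in proximal and 426, 339, 329 and 271 CPM in distal libraries. Fst, which binds activin, was at 16.2 to 32.6 and 5.31 to 15.3 CPM, opposite to Inhba. Of 23 tested Wnt genes, Rspo3 and Sfrp1 lay higher, at 5.88 to 20.8 and 21.6 to 27.2 CPM and at 109 to 132 and 144 to 309 CPM. Rspo3 enhances and Sfrp1 dampens Wnt signals. Of 24 tested hedgehog and FGF genes, 20 had a fitted value above 0 (51.7% of all genes tested), with a median of 0.53. Fgf7, a growth factor for epithelium, was at 1.47 to 5.92 and 11.8 to 20.2 CPM, and Gli1, a target and effector of hedgehog signals, at 1.86 to 4.66 and 5.91 to 16.6 CPM. Of 16 tested retinoic acid genes, Aldh1a2 alone had groups apart.

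Neither smooth muscle contractile genes nor nerve genes passed the test between the segments. The 24 contractile genes had a median log2 fold change of 0.07, with 13 fitted above and 11 below 0 and no groups apart. Myocd, the coactivator of the contractile programme, was at 10.5 to 24.7 CPM in proximal and 20.3 to 47.7 CPM in distal libraries (0.91 ± 0.37 SE, unadjusted p = 0.0371), and Pgm5, a protein of dense plaques, at 346 to 648 and 546 to 1335 CPM (0.99 ± 0.32 SE). The lists for interstitial cells of Cajal (7 genes) and Pdgfra-positive cells (6 genes) had medians of -0.13 and 0.27.

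Of 25 pan-neuronal genes, 24 had a fitted value below 0 and the median was -0.97, but none reached an unadjusted p under 0.05. Their summed level was 1107, 2011, 5531 and 4790 CPM in proximal and 282, 709, 3380 and 2595 CPM in distal libraries. Both distal libraries lay below both proximal libraries among replicates 1 and 2, and likewise among replicates 3 and 4. Replicates 3 and 4 were higher than replicates 1 and 2 in both segments, and over all 8 libraries the groups overlapped. Uchl1, a ubiquitin hydrolase abundant in neurons, was at 161, 360, 574 and 595 CPM and at 23.4, 82.2, 312 and 232 CPM (log2 fold change -1.40 ± 0.70 SE). Of 39 tested neuron class genes, 33 had a fitted value below 0, with Sst (somatostatin) at 148 to 734 and 2.64 to 152 CPM and Cartpt at 6.96 to 61.5 and 1.06 to 12.6 CPM. Both had an unadjusted p under 0.05. The 17 glia genes had a median of -0.15, with Gfap at 28.1 to 275 and 11.6 to 59.4 CPM.

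Ednrb, the endothelin receptor that is disrupted in the HSCR mice, was counted in all 8 WT libraries. It was at 64.5, 33.8, 67.1 and 53.0 CPM in proximal and 11.8, 15.7, 29.5 and 43.0 CPM in distal libraries (log2 fold change -1.15 ± 0.40 SE, unadjusted p = 0.0182). WT distal 4 lay above WT proximal 2, so the groups overlapped. Its ligand gene Edn3 had the opposite sign, with 14.4, 39.5, 16.7 and 8.81 CPM and 30.0, 78.9, 41.9 and 37.2 CPM (1.26 ± 0.50 SE, unadjusted p = 0.0307). Neither passed the test after adjustment (adjusted p = 0.907 for both by edgeR).

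Receptors, channels and matrix genes gave no call, and their few members with groups apart stand beside 1.58% of all genes tested on the lower side. Of 63 tested receptors for enteric transmitters, Ptger2 and P2ry12 had groups apart on the lower side. Ptger2, a prostaglandin E2 receptor that raises cAMP, was at 6.46 to 20.2 and 1.35 to 5.25 CPM (log2 fold change -2.09 ± 0.50 SE). Of 63 tested ion channel genes none had groups apart, and Kcnk2, a leak potassium channel, had the smallest p (0.0168) with a value of -1.48 ± 0.51. Of 41 tested collagens, Col15a1 alone had groups apart, at 185 to 212 and 65.4 to 150 CPM. Of 62 other matrix genes, Fbn2, Bcan, Loxl2 and Smoc1 lay lower, with Loxl2, a crosslinking lysyl oxidase, at 184 to 280 and 50.8 to 179 CPM and Smoc1 at 7.89 to 16.5 and 2.70 to 5.44 CPM. Medians were -0.26 for collagens and -0.16 for other matrix genes, beside 0.03 over all genes.

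No list for other cells or for tissue state held a gene that passed the test. Of 16 fibroblast genes, Pi16 and Fap lay higher and Col15a1 lower, with Pi16 at 1.25 to 3.16 and 4.69 to 27.1 CPM. Of 22 tested immediate early genes, which respond within minutes to stimulation or handling, 8 were higher at an unadjusted p under 0.05 (3.22% of all genes tested), and their summed level was 11265 CPM in WT distal 4 against 686 to 3240 CPM in the other distal libraries and 990.3 to 1590 CPM in proximal libraries. Of these only Klf2 had groups apart, at 29.9 to 47.6 and 49.7 to 438 CPM. Fosb, with the smallest p of the list, was at 666 CPM in WT distal 4 and 7.47 to 84.7 CPM in the other 3. Of 9 tested adipocyte genes, 4 were lower at an unadjusted p under 0.05 (2.08% of all genes tested, median of the list -1.88), with Plin1 at 1.04 to 8.75 and 0.251 to 1.12 CPM. Of 13 mitochondrially encoded genes, all were fitted lower and 5 had an unadjusted p under 0.05 (2.08% of all genes tested). The shares of mitochondrial counts given above rest on the same reads, and their ranges overlapped (p = 0.229 by the permutation test). Of 23 cell cycle genes, 20 were fitted lower (median -0.64), with Mki67, a marker of dividing cells, at 28.4 to 65.7 and 3.16 to 28.0 CPM. Of 14 tested macrophage genes, 13 were fitted higher with a median of 0.55 and no groups apart, and WT proximal 1 and WT distal 1 held the highest levels. Medians were 0.15 for lymphatic endothelium (5 genes), -0.24 for mesothelium (8), 1.59 for red blood cells (5 tested), 0.66 for B and plasma cells (3 tested), -0.23 for squamous epithelium (4 tested), -0.19 for sex-linked genes (4 tested) and -0.54 for the endothelin and GDNF axis (14 tested). Of 8 T cell genes 1 could be tested, and of 5 mast cell genes 0. Actn3 and Mylpf led the skeletal muscle list, with 37.1 and 199.6 CPM in WT distal 1, and Actn3 had groups apart on the higher side. Retn of the adipocyte list and Mki67 had groups apart on the lower side. Over all genes tested, groups were apart for 2.69% above and 1.58% below.

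**Figure D3:**
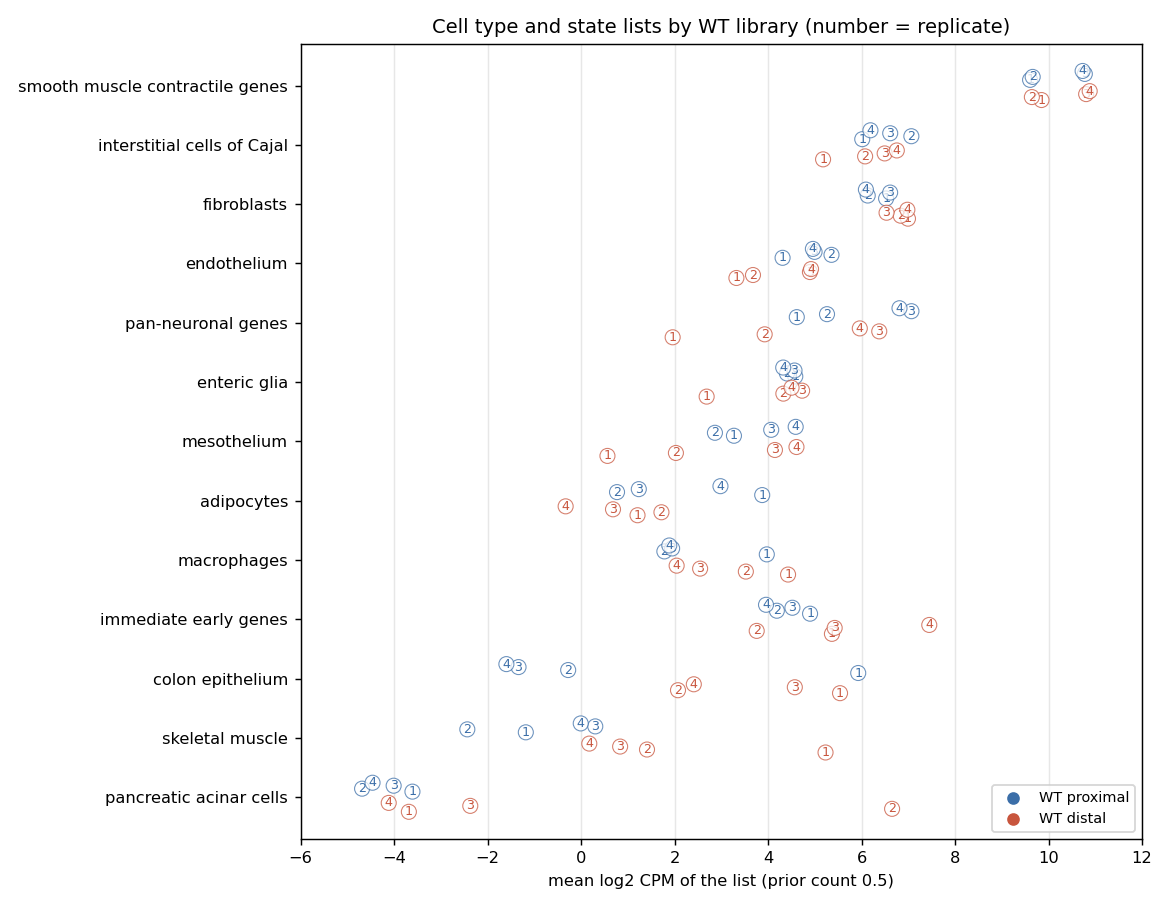
Mean log2 CPM of the genes of 13 cell type and state lists in each WT library, with the replicate number inside each circle, blue for proximal and red for distal. Smooth muscle genes are high in all 8 libraries, replicates 1 and 2 hold the lower neuron levels in both segments, and single libraries stand apart for pancreatic acinar genes (WT distal 2, 6.65), skeletal muscle genes (WT distal 1) and immediate early genes (WT distal 4).

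The same contrast in the 8 HSCR libraries (Ednrb-/-, a model of distal aganglionosis, same ages and background) used no sample of the WT comparison. Ednrb reads were still counted in all 8, at 7.84, 11.9, 37.4 and 35.3 CPM in HSCR proximal and 94.7, 5.43, 6.10 and 9.48 CPM in HSCR distal libraries. No gene passed the test there, at an adjusted p under 0.05 (edgeR quasi-likelihood, 17086 genes, 244 of them with an unadjusted p under 0.05). Of the 12 genes fitted higher in WT distal libraries, 11 could be tested in HSCR and all 11 had the same sign, where 47.1% of all genes tested were above 0 (0.685% above and 0.743% below at an unadjusted p under 0.05). Only Fmo2 among them had groups apart (0.708% of all genes tested on that side), at 29.3 to 43.5 CPM in HSCR proximal and 44.9 to 330 CPM in HSCR distal libraries (log2 fold change 2.23 ± 0.57 SE, unadjusted p = 0.00370). Of the 13 lower transcripts, 8 had the same sign, and none had an unadjusted p under 0.05. Of the Hox genes, all 4 of groups 12 and 13 were fitted higher in HSCR distal libraries, but with overlapping groups and wide errors. Their log2 fold changes were 0.08 ± 1.44 SE for Hoxd12, 1.36 ± 1.85 for Hoxd13, 0.56 ± 0.66 for Hoxa13 and 2.64 ± 2.48 for Hoxb13. Of 30 tested genes of groups 1 to 11, 16 were fitted lower and 14 higher.

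Several HSCR libraries went against their segment labels at the genes that differed between the WT segments. HSCR proximal 1 held 68.7 CPM of Pitx1, 224 CPM of Tnnt2 and 125 CPM of Hoxd13, each within the range of or above the WT distal libraries. Its A630023A22Rik level of 3.65 CPM lay between those of the WT segments. HSCR proximal 2 also lay between them at Pitx1 (39.2 CPM) and A630023A22Rik (3.63 CPM), but held 0.795 CPM of Tnnt2 and 2.35 CPM of Hoxd13. HSCR distal 4 held 4.43 CPM of Pitx1, 13.97 CPM of Hoxd13 and 51.0 CPM of A630023A22Rik, and HSCR distal 1 held 0.615 CPM of Hoxd13 and 17.01 CPM of A630023A22Rik. At other genes, HSCR distal 1 and HSCR distal 4 lay between the WT segments. HSCR distal 1 held 51.8 CPM of Pitx1 and 72.0 CPM of Tnnt2, and HSCR distal 4 held 51.4 CPM of Tnnt2. The highest WT proximal and lowest WT distal levels were 15.2 and 59.5 CPM for Pitx1 and 13.9 and 94.6 CPM for Tnnt2. HSCR proximal 4 also lay between them at Tnnt2 (33.4 CPM). The summed pan-neuronal genes were at 1782 CPM in HSCR distal 1 and at 214 to 287 CPM in the other 3 HSCR distal libraries. In HSCR proximal libraries 1 to 4 they were at 333, 406, 1950 and 1799 CPM, so that HSCR proximal 1 and HSCR proximal 2 were also low. Without HSCR proximal 1, 11 of the 11 higher genes and 9 of the 13 lower transcripts had the WT sign. The difference between the segment contrasts of the 2 genotypes was significant for no gene after adjustment (edgeR interaction, 18619 genes, 268 or 1.44% at an unadjusted p under 0.05), and the difference of A630023A22Rik was 4.05 on the log2 scale with an unadjusted p of 0.00850.

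**Figure D4:**
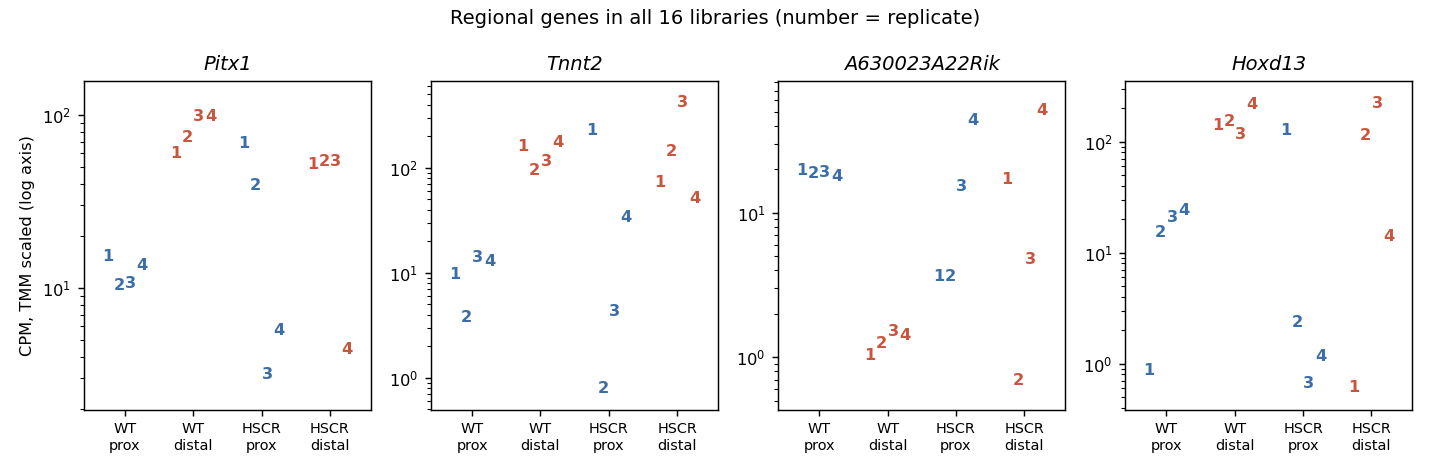
TMM-scaled CPM of Pitx1, Tnnt2, A630023A22Rik and Hoxd13 in all 16 libraries on log axes, with each library drawn as its replicate number, blue for proximal and red for distal segments. The WT segments are apart for all 4 genes, whereas HSCR proximal 1 lies with the WT distal libraries for Pitx1, Tnnt2 and Hoxd13, and HSCR distal 4 lies at 4.43 CPM of Pitx1. HSCR proximal 1 and HSCR proximal 2 lie between the WT segments for A630023A22Rik, at 3.65 and 3.63 CPM.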

How the data were processed

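RNA from LMMP was studied in 16 libraries, 4 for each genotype and segment, grouped by genotype, segment and replicate number in the titles. Per the labels, HISAT2 2.2.1 placed the reads on mm39 and featureCounts 2.0.6 summed them over GENCODE genes. The authors deposited these raw counts for 56748 genes, 23907 of them at 0 in all libraries. The authors also deposited FPKM values, used here only to compare levels between genes. Deposited columns with fold changes (log2) and p-values from group comparisons by the authors were left unused. Whether a given library kept the strand is not given in the sources used here.

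Genes were tested with edgeR 4.0.16 (R 4.3.3; filterByExpr, TMM, robust quasi-likelihood fit) on the 8 WT libraries, with Benjamini-Hochberg adjustment. A gene was called with an adjusted p under 0.05 and a fold change beyond 1.5. CPM were scaled by TMM over the 16 libraries, and list levels are mean log2 CPM with a prior count of 0.5. Counting error was not compared with the spread between libraries gene by gene, and counting intervals and floors cover counting error only. Some genes had few counts, as A630023A22Rik with 32, 44, 73 and 56 in WT distal libraries 1 to 4, and Hoxd12 with 2 in WT proximal 1. The p-values measure the spread between libraries, as the labels do not name the mice.

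The members and the gene lists (35 lists, 757 genes found) were chosen with earlier results of these data known. Named genes were the 12 in each direction with groups that do not overlap (called genes, then those with the smallest p, protein-coding, no provisional symbol), all Hox genes, the 2 members of each list with the smallest p, and Ednrb. Some genes that this rule takes in are not reported here. Alternatives were other normalizations and filters, DESeq2 1.42.0, the likelihood ratio test, limma-voom (limma 3.58.1), RUVr computed from edgeR's deviance residuals, all libraries in 1 fit, further terms, and leaving out libraries. The fits were tested on simulated data. Promoters were read from GRCm39 with GENCODE M39, in which 16528 of the tested genes were found. Python 3.11.15, pandas 2.3.3, numpy 2.4.6 and matplotlib 3.10.9 were used for sequences and figures.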

Additional observations from a re-analysis of the deposited data

Results flagged for a closer look

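In 15 of 216 groups of 4 libraries, 1 library lay further from the other 3 than Dixon's 95% limit, where chance alone gives about 1 in 20. Among the genes, WT distal 1 was apart for Inhba (41.2 CPM, others 11.9 to 13.2) and Rapgef4 (2.70 CPM, others 4.84 to 5.25), WT distal 2 for Hoxb8 (0.505 CPM, others 2.69 to 3.35) and WT distal 3 for Tbx5 (0.827 CPM, others 3.31 to 3.91). WT proximal 1 was apart for Rgs2 (219 CPM, others 293 to 301), Hoxd12 (0.143 CPM, others 2.08 to 2.71) and Hoxd13 (0.861 CPM, others 15.3 to 23.9). WT proximal 2 was apart for Hoxa7 (26.7 CPM, others 9.90 to 10.4), WT proximal 3 for Mss51 (0.0496 CPM, others 0) and WT proximal 4 for Hoxa11 (27.9 CPM, others 29.3 to 29.5).

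Among list levels, in mean log2 CPM, WT proximal 2 was apart for retinoic acid genes (1.62, others 2.70 to 2.78), WT proximal 1 for macrophage genes (3.97, others 1.78 to 1.95) and WT distal 2 for pancreatic acinar genes (6.65, others -4.12 to -2.37). The sex-linked list was low in WT proximal 3 (-3.63, others 2.36 to 2.86) and in WT distal 3 (-3.38, others 2.65 to 3.61), the 2 WT libraries without Ddx3y. The part of these libraries in the results was not tested beyond leaving each out in turn.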

How the results depend on the processing

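Pitx1, Tnnt2 and A630023A22Rik kept their direction in all 25 alternatives, with log2 fold changes of 2.42 to 3.06, 3.39 to 4.28 and -4.04 to -3.70, but not always their calls. Their groups did not overlap in the libraries that were refitted, so the direction could hardly change and is no separate support. The counts of 2 higher and 1 lower genes became 23 and 26 with DESeq2 and 18 and 14 with the likelihood ratio test. RUVr gave 67 and 255 with 1 factor and 1358 and 1488 with 4 factors, which leave little spread between libraries to test against. Each of these counts included these 3 genes. The counts became 0 and 0 with all 16 libraries in 1 fit and with replicates 1 and 2 alone. As chosen after seeing the data, they were also 0 and 0 without WT proximal 1 and WT distal 1 and 2 together. With the epithelium level or the mitochondrial share as a covariate, 0 were higher and A630023A22Rik stayed lower. Leaving out 1 library in turn gave 0 to 1 higher and 0 to 1 lower. Genes with groups apart numbered 445 higher and 261 lower, and 527 to 998 and 341 to 778 with 1 library left out, a weaker demand on fewer libraries. The count of 533 higher and 345 lower genes at an unadjusted p under 0.05 became 802 and 397 without WT proximal 1.

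With the replicate number as a block there were 1 higher and 0 lower, none of the 3 among them. The same-number correlations of deviations were 0.454, 0.0900, 0.331 and 0.212, with 3 of 4 above 0.1. WT distal 1, 2 and 3 correlated best with their own number, while WT proximal 3 correlated best with WT distal 4 (0.438). Pairing was accepted only with every pair above 0.1, so the libraries were not taken as paired.

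With 1 library left out, the sign of several medians turned, with ranges of -0.43 to 0.46 for lymphatic endothelium, -0.82 to 0.14 for mesothelium, -0.07 to 1.24 for macrophages, -0.64 to 0.22 for glia, -0.43 to 0.02 for interstitial cells of Cajal and -0.14 to 0.49 for Pdgfra-positive cells. List medians moved as follows, and the cause was not tested. The Hox median of -0.64 was -0.86 with limma-voom, -1.01 and -0.90 with RUVr and 1 or 4 factors, -0.91 with a CPM above 1 in 4 libraries, -0.90 with the replicate block, -1.01 with replicates 1 and 2 against 3 and 4 as a term, -0.90 with the mitochondrial share, and -0.93 to -0.62 with 1 library left out. With replicates 1 and 2 alone, medians were -1.004 for interstitial cells of Cajal, -0.37 for Pdgfra-positive cells, -1.06 for glia, -1.08 for collagens, 6.34 for skeletal muscle, 2.06 for B and plasma cells, -0.72 for lymphatic endothelium and -0.038 for immediate early genes. With the mitochondrial share they were -0.81 for interstitial cells of Cajal, -2.36 for neuron classes, 4.02 for epithelium, -0.20 for adipocytes and -0.13 for mitochondrial genes. The epithelium median of 0.54 was 4.59 with limma-voom, 3.33 with RUVr and 4 factors, and -0.70 to 4.12 with 1 library left out. The acinar median of 5.55 was 0.51 with limma-voom, 1.52 and 0.93 with RUVr, 11.7 without a filter, 1.01 with the replicate block and 0.68 to 6.92 with 1 library left out. Without the 3 libraries named above it was -0.24, the value of Cela1, which was thereby reversed. The skeletal muscle median of 2.83 was 0.52 with limma-voom, 0.12 without those 3 libraries and 0.20 to 3.34 with 1 left out. The B and plasma cell median of 0.66 was 1.86 with RUVr and 4 factors, 2.26 without a filter, 1.69 with all 16 libraries, and -0.13 to 2.34 with 1 left out. Of 1794 pairs of a named gene and an alternative, 1600 kept direction and side of the threshold, 157 gained a call, 36 lost it and 1 reversed. The named genes were chosen from the same libraries, so their kept directions are no separate support.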
